A study of Mus musculus with 6 samples.

Results

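The genes described here are those of the splicing machinery and of the heterogeneous nuclear ribonucleoproteins (hnRNPs), read from bulk RNA sequencing of B-1a and B-1b cells. They were chosen by name, with earlier results of these data known. The rule took the names in the table that start with Hnrnp, Srsf, Sf3a or Sf3b, Snrp, U2af, Prpf or Lsm followed by their member letter or number. This gave 62 of the 7834 gene names in the table, with 157 of its 13747 rows. They comprised 17 hnRNP genes, 9 SF3 genes, 11 Snrp genes, 3 U2af genes, 11 Prpf genes and 11 Lsm genes. No name starting with Srsf was matched, so the SR proteins of that family were not analysed here.

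Splicing removes introns from precursor RNA. Small nuclear ribonucleoproteins (snRNPs), each an RNA held in a ring of Sm or LSm proteins, recognise the ends of the intron and the branch point and assemble into the spliceosome. U2AF and SF3 proteins bring the U2 snRNP to the branch point, Prpf proteins belong mostly to the tri-snRNP and to the catalytic core, and hnRNPs coat the transcript and change which splice sites are used. In B cells, alternative splicing and 3' end choice are known for the switch between membrane and secreted immunoglobulin and between IgM and IgD.

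B-1 cells are innate-like B cells of the body cavities, and B-1a and B-1b are their CD5+ and CD5- subsets. Both groups were wild-type (WT) cells from the peritoneal cavity of untreated C57BL/6 mice, purified by fluorescence-activated sorting, and the study used males throughout. The sources used here do not give the age of these mice or how many were pooled for a library. Libraries were made from poly-A RNA, and the labels name 3 replicates of each subset. The table gives several rows for many genes, as a list of transcripts does, and its values were read as FPKM (fragments mapped per unit of transcript length and of library size).

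The replicates numbered 3 are not separate measurements. Within the members, B-1b replicate 3 was equal to B-1b replicate 1 in 157 of 157 rows, and B-1a replicate 3 was equal to the mean of B-1a replicates 1 and 2 in 156 rows (tolerance 1e-06 FPKM). Therefore 2 libraries per group were compared, and nothing in the labels says that they came from separate animals, so the p-values measure the spread between these libraries, which may be technical. Total FPKM ranged from 324330 to 366992, and sequencing depth is unknown from such values. Cd5, the gene that names the sort, measured 0.446 and 0.757 FPKM under the B-1a label and 0.895 and 0.737 FPKM under the B-1b label. The groups overlapped in this gene, and they are named here by their labels. Of 9 macrophage marker genes, 8 were in the table and all 8 had a log2 fold change above 0, higher in B-1b (56.2% of all genes tested), 6 of them without overlap (25.8% of all genes tested). Their summed level was 4775, 3598, 4481 and 7576 FPKM in B-1a replicates 1 and 2 and B-1b replicates 1 and 2. Most of that sum was Lyz2, the lysozyme of phagocytes, at 3238 to 6824 FPKM, and Adgre1, which encodes F4/80, was at 51.1 and 56.0 against 90.4 and 101 FPKM. The 8 B cell markers summed to 3756 to 4311 FPKM and the 5 T cell markers found, of 8, to 11.5 to 17.1 FPKM. The part of these other cells in the results below was not tested.

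At the level of gene sums, in which the rows of a name were added, none of the splicing genes passed the adjusted test between the subsets. All 62 members passed the filter on low values (at least 1 FPKM in at least 2 libraries). Together they took 2469 and 2690 FPKM in B-1a replicates 1 and 2, and 2562 and 2925 FPKM in the B-1b replicates. This is 0.713% and 0.780% of the total in B-1a and 0.790% and 0.797% in B-1b. The means (2579 ± 156 and 2743 ± 257 FPKM, SD, n = 2 each) differed by less than the SD of B-1b. In bulk samples, fewer cells of a type and less RNA per cell cannot be told apart.

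**Figure D1:**
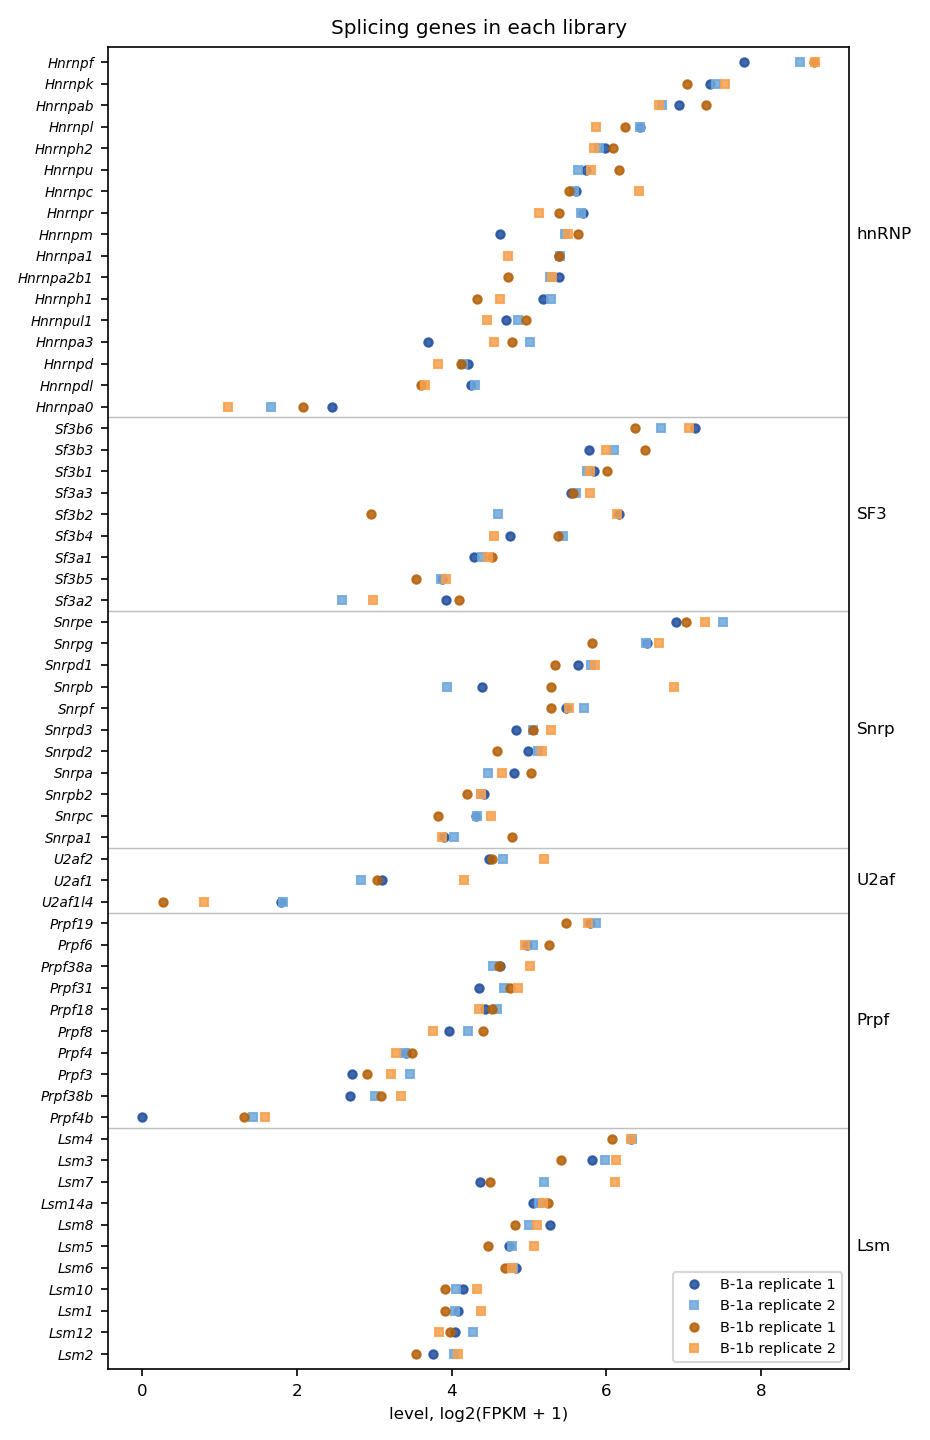
Level of 61 of the 62 splicing genes in each library. The x axis is log2(FPKM + 1) of the gene sum, genes are grouped by family and ordered by mean level, blue marks B-1a and orange marks B-1b, with circles for replicate 1 and squares for replicate 2. Hnrnpf is the highest member, and the points of Snrpb and Sf3b2 spread most widely.

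The log2 fold change of FPKM + 1, always B-1b over B-1a, was above 0 in 29 members and below 0 in 33, with a median of -0.03, against 4250 of 7557 genes above 0 and a median of 0.05 over all genes tested. It lay within 0.5 of 0 in 51 of 62 members (82.3%, against 72.4% of all genes) and passed 1 in either direction in 2, Snrpb and U2af1l4 (background 9.95% of all genes). No member had an adjusted p below 0.05 in limma (0 of 62), against 15 of all 7557 genes (0.198%). At an unadjusted p below 0.05 there were 5 members (8.06%), against a background of 9.66%. Of these, 2 were higher in B-1b (background 5.39%) and 3 were lower (background 4.27%). U2af1l4 is among the 3 lower members, the 2 past 1 and the 18 without overlap counted below. It passed the filter through the B-1a libraries alone, so it had to differ. Fitted gene by gene, with no spread shared over genes, a linear model gave 4 members at an unadjusted p below 0.05 (6.45%, against 8.69% of all genes). It called 0 of all genes at an adjusted p below 0.05, so its 0 for the members carries no information. The libraries of the groups did not overlap in 18 members (29.0%), 9 in each direction, against 43.1% of all genes. The median absolute log2 fold change between groups was 0.20, with a median absolute difference of 0.13 between the B-1a libraries and 0.38 between the B-1b libraries. Over all genes tested these medians were 0.26, 0.20 and 0.32, with the B-1b libraries again further apart than the B-1a libraries. By family the median log2 fold change was -0.08 for hnRNP, 0.11 for SF3, -0.10 for Snrp, 0.29 for U2af, 0.09 for Prpf and -0.08 for Lsm genes. With 1 library left out in turn, these medians ranged from -0.16 to 0.00 for hnRNP, 0.06 to 0.17 for SF3, -0.19 to 0.13 for Snrp, -0.049 to 0.62 for U2af, 0.01 to 0.24 for Prpf and -0.25 to 0.18 for Lsm genes, and the sign turned for Snrp and Lsm genes without B-1b replicate 1 and for U2af genes without B-1b replicate 2.

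**Figure D2:**
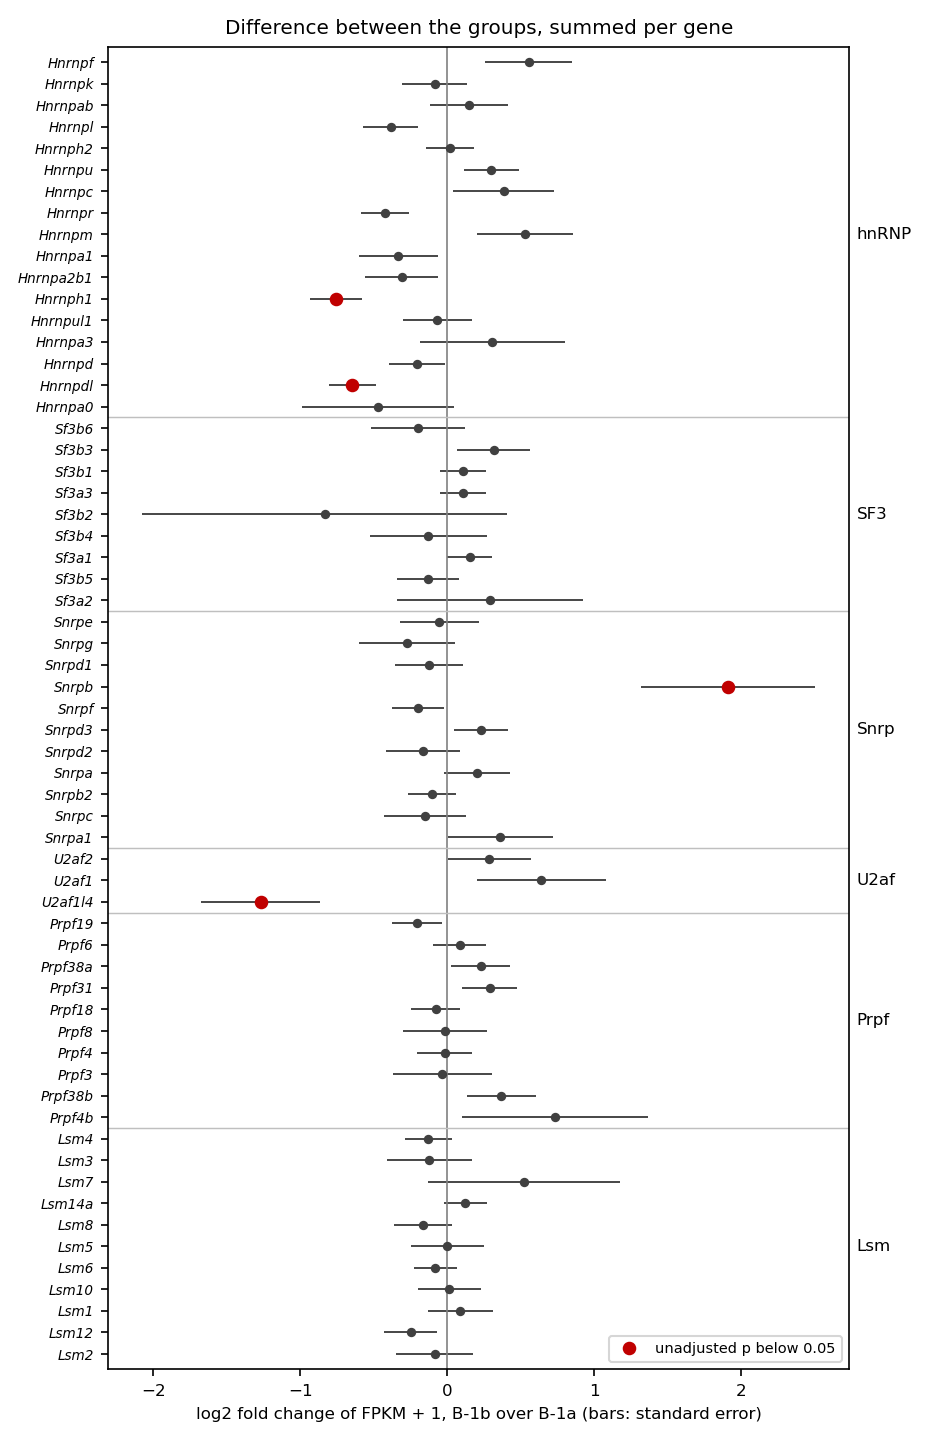
Log2 fold change of 61 of the 62 splicing genes (FPKM + 1, B-1b over B-1a, 2 libraries per group), with bars for the standard error from limma. The red points are 4 of the 5 members with an unadjusted p below 0.05, and no member passed the adjusted threshold.

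Among the hnRNP genes, Hnrnph1 and Hnrnpdl had the smallest p. Hnrnph1 encodes a protein that binds runs of guanosine and acts on splice site choice, and its gene lies at chr11:50376990-50386528 on the plus strand (GRCm38, GENCODE M21, as for all genes below). It was at 35.3 and 37.8 FPKM in B-1a and at 19.0 and 23.6 FPKM in B-1b, both B-1b libraries below both of B-1a. Its log2 fold change was -0.76 (standard error (SE) 0.18, adjusted p = 0.342). Hnrnpdl, related to the AU-rich element binding protein hnRNP D and encoded at chr5:100033577-100039664 on the minus strand, was at 18.1 and 18.7 FPKM in B-1a and at 11.1 and 11.6 FPKM in B-1b. The spread within each group was small and the groups did not overlap, with a log2 fold change of -0.65 (SE 0.16, adjusted p = 0.356).

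Hnrnpr and Hnrnpl also lay lower in both B-1b libraries. Hnrnpr was at 50.9 and 50.1 FPKM in B-1a and at 41.0 and 34.0 FPKM in B-1b, for a log2 fold change of -0.43 (adjusted p = 0.542). Hnrnpl, a binder of CA-rich repeats known for the exon choice in Ptprc (CD45) transcripts, was at 85.7 and 85.6 FPKM in B-1a and at 74.5 and 57.2 FPKM in B-1b, for a log2 fold change of -0.39 (adjusted p = 0.608, and -0.57 to -0.20 with a library left out). Hnrnpa2b1 gave 40.8 and 37.6 FPKM against 25.6 and 38.4 FPKM, so its groups overlapped. It is also the member whose B-1a replicate 3 departs from the mean of the others, at 33.7 instead of 39.2 FPKM.

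Hnrnpf, Hnrnpm and Hnrnpu had the smallest p among hnRNP genes with a higher mean in B-1b. Hnrnpf, a close relative of Hnrnph1, was the highest of the 62 members, at 217 and 361 FPKM in B-1a and at 409 and 415 FPKM in B-1b. B-1a replicate 1 stood apart from the other 3 libraries, and the log2 fold change of 0.55 (adjusted p = 0.632) was 0.19 without it. Hnrnpm had the same shape, at 23.6 FPKM in B-1a replicate 1 and 43.0, 48.4 and 44.5 FPKM in the others, with a log2 fold change of 0.53 that was 0.11 without that library. Hnrnpu, which also binds the nuclear scaffold, was at 52.2 and 48.5 FPKM against 70.3 and 54.9 FPKM.

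The U2af genes encode the factors that read the 3' splice site. U2af2, the large subunit that binds the polypyrimidine tract, was at 21.4 and 24.3 FPKM in B-1a and at 22.0 and 35.6 FPKM in B-1b. U2af1, the small subunit that reads the AG at the intron end, was at 7.54 and 6.08 FPKM against 7.23 and 16.9 FPKM. In both genes B-1b replicate 2 was high and the other 3 libraries were close together. U2af1l4, a paralog of the small subunit, was low throughout, at 2.47 and 2.52 FPKM in B-1a and at 0.206 and 0.745 FPKM in B-1b. It passed the filter through the B-1a libraries alone. Its groups did not overlap, and its log2 fold change was -1.27 (SE 0.40, adjusted p = 0.467). The annotation places U2af1l4 (chr7:30563301-30565365, plus strand) across from Psenen on the other strand, and the sources used here do not give the strandedness of the library, so reads of such a pair could be split either way. Over the members, 12 overlap an annotated protein-coding gene, among them Hnrnpab, Hnrnpk, Hnrnpm, Hnrnpu, Snrpa and Snrpd3.

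SF3 proteins bind the branch point with the U2 snRNP. Sf3b2 (chr19:5273932-5295455, minus strand) was the most uneven member, at 70.3 and 23.3 FPKM in B-1a and at 6.76 and 69.2 FPKM in B-1b, so each group held a high and a low library. Its log2 fold change was -0.84 with an SE of 1.24 (adjusted p = 0.844), and it turned to 0.75 without B-1b replicate 1. Sf3b6, which contacts the branch point adenosine, had the highest mean of the family, at 140 and 103 FPKM against 81.9 and 133 FPKM. Both rows of Sf3b2 followed the same course, row 1 at 19.1, 3.68, 2.37 and 17.2 FPKM and row 2 at 51.1, 19.6, 4.38 and 52.0 FPKM in B-1a replicates 1 and 2 and B-1b replicates 1 and 2.

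Of the Prpf genes, 6 had a log2 fold change above 0 and 5 below. Prpf19, a ubiquitin ligase of the activated spliceosome, had the highest mean of the family, at 54.2 and 57.1 FPKM against 43.4 and 53.2 FPKM. Its log2 fold change was -0.21, and -0.35 to -0.06 with a library left out.

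Snrpb had the largest log2 fold change of FPKM + 1 of the 62 members. It encodes SmB, one of the proteins of the Sm ring around spliceosomal RNAs, from chr2:130171414-130179403 on the minus strand. It was at 20.0 and 14.4 FPKM in B-1a and at 38.1 and 116 FPKM in B-1b, so that both B-1b libraries lay above B-1a and replicate 2 lay far above replicate 1. The log2 fold change was 1.91 (SE 0.59, adjusted p = 0.449). Leaving out B-1b replicate 2 gave 1.12, and leaving out replicate 1 gave 2.71. The excess of B-1b replicate 2 sat in row 2, at 14.2, 7.58, 20.5 and 98.9 FPKM. Row 1 was at 5.85 and 6.81 FPKM in B-1a and at 13.4 and 11.7 FPKM in B-1b, and row 3 was listed at 0 in both B-1a libraries and at 4.17 and 5.79 FPKM in B-1b. The values of row 1 and row 3 were even within each group.

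The other ring genes were high or low by library. Snrpe, which encodes SmE, had the highest mean of the Snrp genes, at 118 and 181 FPKM in B-1a and at 129 and 154 FPKM in B-1b. Lsm4, a subunit of both the nuclear and the cytoplasmic LSm ring, had the highest mean of the Lsm genes, at 78.5 and 79.3 FPKM against 66.0 and 78.6 FPKM. Lsm7, also of both rings, was at 19.7 and 35.6 FPKM against 21.5 and 68.3 FPKM, high in B-1b replicate 2. The ring genes were counted as the 7 Sm genes Snrpb, Snrpd1, Snrpd2, Snrpd3, Snrpe, Snrpf and Snrpg and as the 8 genes Lsm1 to Lsm8, of which Lsm1 belongs to the cytoplasmic decay ring and Lsm8 to the nuclear U6 ring. Their sums were 652 and 750 FPKM in B-1a against 582 and 890 FPKM in B-1b.

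In 15 of the 15 ring genes B-1b replicate 1 lay below B-1b replicate 2, against 22 of the 47 other members (46.8%) and 50.5% of all genes tested. The median log2 ratio of replicate 1 over replicate 2 in FPKM was -0.53 in the ring genes, 0.06 in the other members and -0.01 in all genes. B-1b replicate 1 was the lowest of the 4 libraries in 11 ring genes (73.3%), against 27.0% of all genes. Scaling to equal upper quartiles kept 15 of 15, against 43.0% of all genes, with a median ratio of -0.44 in the ring genes and 0.08 in all genes. Scaling to equal totals without immunoglobulin genes gave 14 of 15, against 35.7% of all genes, with median ratios of -0.34 and 0.18. This comparison was chosen after the values were seen and is a description of 2 libraries. The sign of the group difference turned with these libraries, as the median log2 fold change of the 15 genes, -0.09 over all 4 libraries, was 0.16 when B-1b replicate 1 was left out and -0.29 when replicate 2 was.

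**Figure D3:**
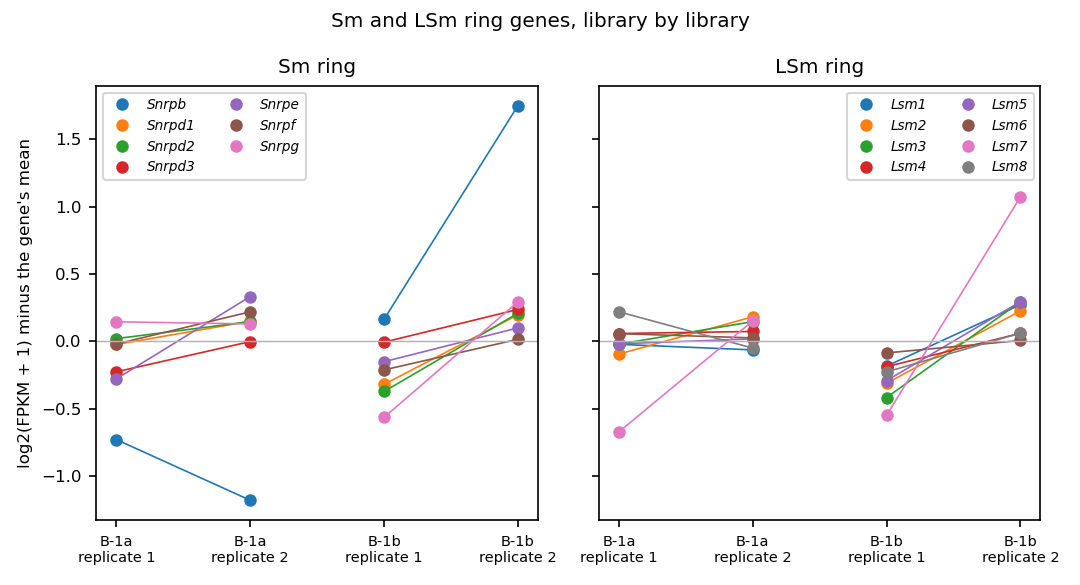
Sm ring genes (left) and LSm ring genes (right) in each library. The y axis is log2(FPKM + 1) minus the mean of that gene over the 4 libraries, each color is a gene, and lines join the libraries of a group only to follow a gene. In each of the 15 genes B-1b replicate 1 sits below B-1b replicate 2.

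The ring genes are short. Their longest annotated coding transcript had a median of 925 bases, against 2933 bases in the other members. Across the 62 members, Spearman's correlation of that length with the log2 difference of FPKM + 1 between B-1b replicate 1 and replicate 2 was 0.48, and across 6938 genes it was 0.36. The same correlation for B-1a replicate 1 over replicate 2 was -0.07 in the members and 0.00 in all genes. Genes are not independent replicates, and all points of a correlation share the same pair of libraries. The part of transcript length in the ring pattern was not tested.

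**Figure D4:**
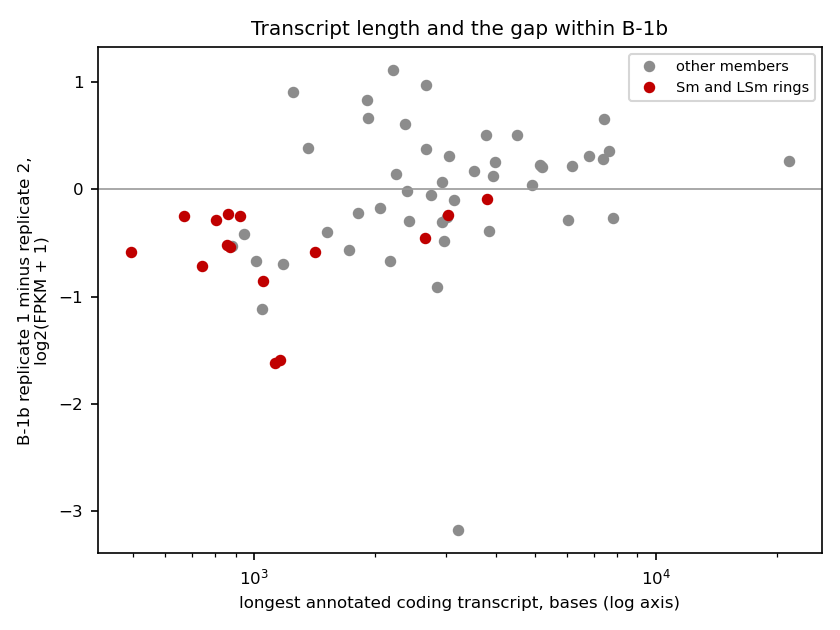
Length of the longest annotated coding transcript of each member in bases (x, log axis) and the difference of log2(FPKM + 1) between B-1b replicate 1 and B-1b replicate 2 (y). Red points are the 15 ring genes, gray points the 47 other members, and the red points all lie below 0.

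Transcript rows were then kept apart. Of the members, 44 had several rows, 18 had a single one, and the most was 12, for Hnrnpk. The rows carry no transcript identifier, and they are numbered here in the order in which the table lists them under a name. Of 157 member rows, 146 passed the filter, 7 of them through B-1b alone and 1 through B-1a alone, with both libraries of the other group under 1 FPKM. Rows of that kind had to differ, and they make up 4 of the 15, 8 of the 57 and 7 of the 30 counted next. None had an adjusted p below 0.05 in limma (0 of 146), against 6 of 12137 rows (0.0494%). At an unadjusted p below 0.05 there were 15 (10.3%, background 9.88%), 10 higher and 5 lower in B-1b. The groups did not overlap in 57 rows (39.0%, background 41.3%). The log2 fold change passed 1 in either direction in 30 of the 146 rows, 21 higher and 9 lower (background 17.7% of all rows).

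In 2 of the 44 members with several rows, Hnrnpr and Snrpa, both B-1a libraries had the same highest row and both B-1b libraries had another (4.55%, background 4.23% of the 2744 names with several rows that were above 0 in each library and at 10 FPKM or more in at least 1). The same row led in all 4 libraries in 33 of the 44 members, against 61.3% of those names. The share with a change of leading row was close to the background. Both genes have more than one RefSeq start, and the bases before the first start of each are given to show what lies ahead of these transcripts. They are from RefSeq on GRCm38.p6, 250 bases up to the start, at chr4:136310692-136310941 on the plus strand for Hnrnpr and at chr7:27196272-27196521 on the minus strand for Snrpa. Capitals mark a CCAAT box (CCAAT, here in its reverse complement ATTGG) in Hnrnpr and the letters of a TATA box (TATAAA) in Snrpa. These letters in Snrpa lie nearer the far end of the stretch than the start.
Hnrnpr: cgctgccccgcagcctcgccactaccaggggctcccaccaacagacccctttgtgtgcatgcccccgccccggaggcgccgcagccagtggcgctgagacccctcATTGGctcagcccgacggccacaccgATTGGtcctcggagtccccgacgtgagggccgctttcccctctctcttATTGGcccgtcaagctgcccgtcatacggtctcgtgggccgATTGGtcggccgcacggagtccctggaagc
Snrpa: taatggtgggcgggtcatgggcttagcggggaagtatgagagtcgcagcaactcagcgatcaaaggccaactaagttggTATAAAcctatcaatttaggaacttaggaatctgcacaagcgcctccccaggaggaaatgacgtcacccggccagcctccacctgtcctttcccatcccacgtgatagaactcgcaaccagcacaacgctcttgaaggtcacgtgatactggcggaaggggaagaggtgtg

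The Hnrnpr stretch holds 4 CCAAT boxes and 23 CpG dinucleotides, the Snrpa stretch 1 TATAAA and 12 CpG. The second start of each gene, searched over 300 bases (250 before to 50 after the start), had none of the motifs searched, with 33 CpG in Hnrnpr and 29 in Snrpa, where the first start over the same 300 bases had 31 and 13. Over the members, 52 of 62 matched the RefSeq promoter table, with 68 such windows. CCAAT on either strand was in 51.5% of them, against 37.9% of the 7203 windows of tested genes and 37.4% of all 32851 windows. The ETS core CCGGAAG was in 29.4%, against 20.2% and 8.86%. The YY1 core GCCATCTT was in 7.35%, against 5.15% and 2.75%, and TATAAA was in 5.88%, against 6.90% and 13.6%. None of these motifs contains another, both strands were searched for each, and a match is a description of the letters, not a binding site. As the rows carry no identifier, no row can be assigned to a start.

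Hnrnpr encodes an RNA-binding protein of the same subfamily as Syncrip and lies at chr4:136310942-136359447 on the plus strand, where the GENCODE M21 annotation has 11 transcripts. Its row 1 was at 4.32 and 3.56 FPKM in B-1a and at 34.9 and 22.5 FPKM in B-1b, and its row 2 at 41.4 and 42.8 FPKM in B-1a and at 2.53 and 9.19 FPKM in B-1b. Row 1 held 8.49% and 7.11% of the gene's FPKM in B-1a and 85.1% and 66.1% in B-1b, row 2 the converse. The log2 fold changes were 2.56 (SE 0.31, adjusted p = 0.154) for row 1 and -2.85 (SE 0.58, adjusted p = 0.288) for row 2 in limma. The third row stayed between 2.34 and 5.12 FPKM. The sum of the gene differed by -0.43, so the rows of Hnrnpr differed far more than their total.

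Snrpa encodes the A protein of the U1 snRNP and lies at chr7:27187005-27196271 on the minus strand, with 7 annotated transcripts, and overlaps BC024978 on the other strand. Row 1 was at 1.30 and 2.22 FPKM in B-1a and at 22.9 and 20.4 FPKM in B-1b. Row 3 was at 16.3 and 9.91 FPKM in B-1a and at 1.75 and 0.0664 FPKM in B-1b. The log2 fold change of row 1 was 3.06 (SE 0.30, adjusted p = 0.108). That of row 3 lay between -3.69 and -2.32 with a library left out (adjusted p = 0.289 with all 4). Row 1 held 4.82% and 10.5% of the gene in B-1a and 72.3% and 84.7% in B-1b, while the gene sum was 26.9 and 21.2 FPKM against 31.7 and 24.1 FPKM, with overlap.

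**Figure D5:**
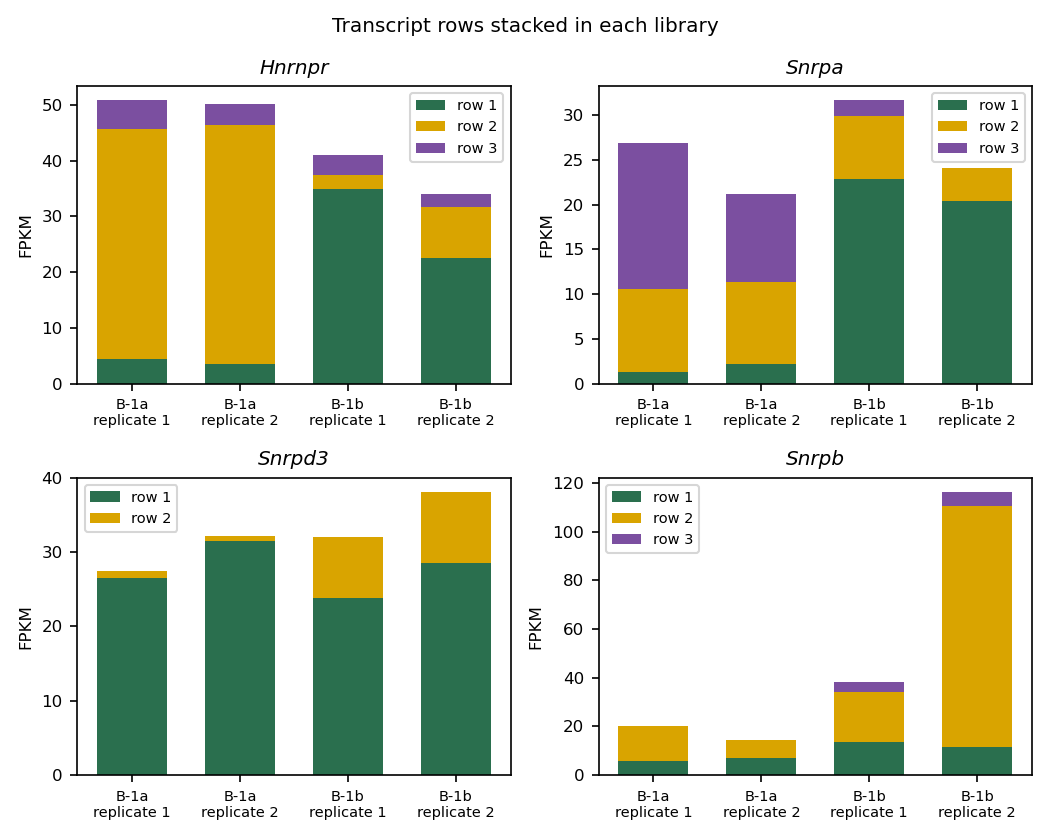
Transcript rows of Hnrnpr, Snrpa, Snrpd3 and Snrpb in each library, stacked in FPKM so that the bar height is the gene sum. In Hnrnpr and Snrpa the largest part of the bar is another row in the B-1a than in the B-1b libraries, and in Snrpb the bar of B-1b replicate 2 reaches 116 FPKM through row 2.

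Hnrnpk, a binder of poly-C stretches encoded at chr13:58391142-58403343 on the minus strand, had the row of smallest p among the members. Its row 5 was at 0.959 and 0.972 FPKM in B-1a and at 13.7 and 14.7 FPKM in B-1b, for a log2 fold change of 2.95 (SE 0.27, adjusted p = 0.0989). Row 5 passed the filter through the B-1b libraries alone. Row 11 was at 11.1 and 6.68 FPKM against 2.76 and 0.755 FPKM, a log2 fold change of -1.90 (adjusted p = 0.410). Row 4 was at 19.2 and 3.79 FPKM against 2.28 and 8.67 FPKM, with overlap. The gene sum was 160 and 169 FPKM against 131 and 184 FPKM, a log2 fold change of -0.08. These rows are minor parts of a gene whose total did not separate the groups.

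In 3 further genes with a wide gap between rows, 1 row had a single library far from the other 3. Hnrnpa3 row 1 was at 0.00131 FPKM in B-1a replicate 1 and at 18.3, 12.1 and 12.4 FPKM in the others, and its log2 fold change of 1.59 was -0.54 without that library. Its row 2 was at 11.6 and 11.4 FPKM against 9.09 and 7.83 FPKM. Hnrnpab, which binds AU-rich and single-stranded sequences, had row 2 at 1.76 FPKM in B-1b replicate 1 and at 18.7, 15.8 and 17.0 FPKM in the others. Its row 1 was at 27.0 and 25.6 FPKM in B-1a and at 55.9 and 19.7 FPKM in B-1b. Snrpe row 2 was at 22.4 FPKM in B-1b replicate 2 and at 1.52, 2.94 and 4.48 FPKM in the others, while row 1 was at 117 and 178 FPKM against 125 and 132 FPKM. In Snrpe row 2 the log2 fold change was 1.84 with all 4 libraries and 0.80 without B-1b replicate 2.

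Snrpd3, named after its values were seen, had a log2 fold change of 0.23 in its sum and a wider one in a minor row. It encodes SmD3, and its row 2 was at 0.925 and 0.732 FPKM in B-1a and at 8.26 and 9.58 FPKM in B-1b, for a log2 fold change of 2.44 (adjusted p = 0.160). Like Snrpb row 3, it entered the test through B-1b alone. Row 1 was at 26.5 and 31.4 FPKM against 23.8 and 28.5 FPKM. Besides Snrpb row 3, the rows listed at 0 in both libraries of a group were Prpf8 row 2 and U2af2 row 3 in B-1a and Lsm7 row 3 in B-1b. The remaining library or libraries of these 3 rows held at most 7.38 FPKM, and each was above 0 in 1 library.

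The other genes of the pathway were taken from a list of 128 splicing genes outside the members, of which 103 were in the table and 102 passed the filter. The log2 fold change was above 0 in 52 of these and below 0 in 50, with a median of 0.00. None had an adjusted p below 0.05 (0 of 102 in limma), against 0.198% of all genes, and 8 had an unadjusted p below 0.05 (7.84%, against 9.66%), 4 in each direction. The groups did not overlap in 48 of them (47.1%, against 43.1%). By group, it was above 0 in 8 of 15 genes of the Prpf19 complex and its associated proteins, 2 of 4 SR protein kinases, 5 of 17 SR-related and branch point proteins, 3 of 8 genes of the exon junction complex, 8 of 10 helicases, 9 of 12 other snRNP proteins, 12 of 27 other regulators and 5 of 9 snRNP assembly genes, against 56.2% of all genes tested. No test of a difference between these groups was made.

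Pcbp1 had the smallest p of that list. It encodes hnRNP E1, a poly-C binding protein related to hnRNP K that is known for mRNA stability and translation as well as splicing. It was at 10.4 and 19.8 FPKM in B-1a and at 157 and 164 FPKM in B-1b, for a log2 fold change of 3.39 (SE 0.33, adjusted p = 0.110 in limma). Ppil1, a prolyl isomerase of the activated spliceosome, was at 43.8 and 51.1 against 75.4 and 89.9 FPKM (log2 fold change 0.79, adjusted p = 0.319). Rbm39, an SR-related protein similar to U2af2, was at 35.3 FPKM in both B-1a libraries and at 52.5 and 62.1 FPKM in B-1b (0.68, adjusted p = 0.342). None of these 3 genes overlapped between the groups (43.1% of all genes did not overlap), but they were chosen by their small p.

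Mbnl1, Celf2 and Eif4a3 had the smallest p among those with a lower mean in B-1b. Mbnl1, a muscleblind protein that promotes adult splicing patterns, was at 107 and 95.3 FPKM in B-1a and at 44.4 and 36.7 FPKM in B-1b, for a log2 fold change of -1.30 (SE 0.17, adjusted p = 0.195). Celf2, known for exon choice in lymphocytes and as a counterpart of the muscleblind proteins, was at 19.3 and 22.6 against 4.82 and 7.69 FPKM (-1.62, adjusted p = 0.244). Eif4a3, the helicase that anchors the exon junction complex, was at 75.9 and 56.4 against 29.6 and 15.7 FPKM (-1.56, adjusted p = 0.342). The groups did not overlap in any of the 3, which were also chosen by their small p, and none passed the adjusted threshold.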

How the data were processed

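Reads were aligned by the authors to GRCm38/mm10 with HISAT2 and quantified and assembled with StringTie (per the paper's methods and the labels), while the sources used here do not give versions or annotation release. The deposited values were read as FPKM per transcript, an inference from their fractional form and from sums that differ between libraries, since the table names no unit. Its file name speaks of raw read counts, which fractional values are not, so the unit of each printed level is uncertain to that extent. No whole-read steps were found, so depth is unknown, no counting error is given, and 2 libraries per group limit the precision. Columns of other samples used: 0.

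Rows of a name were summed, or kept apart. B-1a replicates 1 and 2 were compared with B-1b replicates 1 and 2. Genes and rows with at least 1 FPKM in at least 2 libraries were tested on log2(FPKM + 1) in limma 3.58.1 (R 4.3.3) with an intensity trend and Benjamini-Hochberg adjustment over all genes (7557) or all rows (12137) tested at 0.05, after the step was tested on simulated data. In the simulated data, log2 fold changes of 1 were not called, so a lack of calls does not show equal levels. A fold change on the scale of log2(FPKM + 1) understates changes of low genes. Reads shared with near-identical copies or pseudogenes could be split between names by the quantification.

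The members, the pathway list and the marker lists were chosen with earlier results of these data known. Marker lists were for B, B-1, B-2, plasma, T, mast and erythroid cells, macrophages, neutrophils and platelets. Genes named are, in each direction, the 5 members of smallest p and the 5 of largest change (at least 10 FPKM in a group mean), the highest of each family, all U2af genes and a departing replicate 3. Rows named are the 3 of smallest p in each direction and the 6 members whose rows (at least 10 FPKM) differ most, and, of the pathway list, the 3 of smallest p in each direction. The named alternatives are given in the closing section. All 62 member names matched GENCODE M21 (GRCm38), the source of coordinates and transcript lengths. Promoters are from RefSeq (GRCm38.p6), and among the members with no entry there were Lsm1, Lsm4, Lsm12, Prpf18, Sf3b4, Sf3b5, Snrpb, Snrpd1 and U2af2. A gene that the rule names is counted but not reported here by name. Other steps used Python 3.11.15, pandas 2.3.3 and numpy 2.4.6.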

Additional observations from a re-analysis of the deposited data

How the results depend on the processing

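The count of splicing genes and of splicing rows with an adjusted p below 0.05 was 0 without the low filter, at a minimum of 10 FPKM, with a pseudocount of 0.1, without the intensity trend and under both scalings, where 8 to 18 of all genes and 0 to 6 of all rows were called, a background at which about 0 members are called. With a library left out, and under the replicate block, 0 of all genes and rows were called, as were 0 of all rows without the intensity trend, so the 0 for the members there says nothing about stability. A group left with 1 library is assumed to vary like the other group. With all 6 columns counted as libraries, which repeats measurements, it was 5 for gene sums (8.06%) and 18 for the other splicing genes (17.6%), against 1259 of all genes (16.7%), and 21 for rows (14.4%), against 1853 of all rows (15.3%). At an unadjusted p below 0.05 the 5 genes became 3 at a minimum of 10 FPKM (5.56%, against 10.7% of all genes) and 14 with all 6 columns (22.6% against 33.7% of all genes), and 1 to 9 when a library was left out (1, or 1.64% against 7.20% of all genes, without B-1a replicate 1; 3, or 4.92% against 8.02%, without B-1a replicate 2; 9, or 14.5%, without either B-1b library, against 11.8% without replicate 1 and 15.2% without replicate 2). The 15 rows became 6 at 10 FPKM (8.0%, against 10.6% of all rows), 32 with all 6 columns (21.9%, against 31.6%) and 11 to 17 when a library was left out (7.80% to 12.9%, against 8.22% to 11.5%). The replicate block gave 3 genes (4.84%, against 8.12% of all genes) and 13 rows (8.90%, against 7.75% of all rows) at an unadjusted p below 0.05, and 0 with an adjusted p below 0.05 in both. Same-numbered libraries did not deviate together over all genes (correlation 0.00). A shared animal, sort or batch was not tested, and the labels give only the number.

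The median log2 fold change ranged from -0.05 to 0.08 when a library was left out, and was -0.06 with equal upper quartiles, where 26 members were above 0. Of the named genes, the direction reversed for Lsm7 (-0.29 to 1.33, and -0.66 by its highest row), Sf3b2 (-2.42 to 0.75), Sf3b6 (-0.55 to 0.15, also 0.02 without B-1a replicate 1), Snrpe (-0.36 to 0.25, and 0.07 without B-1b replicate 1) and U2af2 (-0.049 to 0.62). The rows that reversed were Hnrnpa3 row 1 (-0.54 to 3.73), Hnrnpab row 1 (-0.40 to 1.06), Hnrnpk row 4 (-1.84 to 0.23) and Snrpe row 1 (-0.47 to 0.13), and Sf3b2 row 1 (-1.53 to 0.91) and row 2 (-2.61 to 0.69), an alternative added after the values were seen. So did the family medians of Snrp (-0.19 to 0.13), U2af (-0.05 to 0.62) and Lsm genes (-0.25 to 0.18), also added then. The cause was not tested. The other genes and rows named by the rule kept their direction with each library left out where they could be tested, but 5 came within 0.1 of 0, namely Lsm4 (-0.25 to -0.0060), Hnrnpab row 2 (-2.72 to -0.014), Hnrnpa2b1 (-0.60 to -0.026), Prpf19 (-0.35 to -0.063) and U2af1 (0.08 to 1.20). Among genes checked after their values were seen, Snrpd3 (0.11 to 0.35), Pcbp1 (2.96 to 3.82), Mbnl1 (-1.43 to -1.17), Celf2 (-1.91 to -1.33) and Eif4a3 (-1.99 to -1.12) kept theirs too.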

Other observations

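Of the other marker lists, the log2 fold change (B-1b over B-1a) was above 0 for 4 of 4 mast cell genes tested, against 56.2% of all genes tested. The mast cell genes summed to 79.1 and 74.9 FPKM in B-1a replicates 1 and 2 and to 146 FPKM in B-1b replicate 1. The sum of B-1b replicate 2 lay between those of the B-1a libraries, so the groups overlapped in this sum. The log2 fold change was below 0 for 4 of 4 erythroid genes, whose sums were 13.5 to 34.3 FPKM. The B-2 list had 2 of 4 genes above 0, the plasma cell list 2 of 4 tested and the B-1 list 4 of 6 tested. The B-1 list had a median log2 fold change of 0.82, with 2 of 6 genes below 0. At an unadjusted p below 0.05 in limma it had 3 genes, all higher in B-1b (background 5.39%). Pf4, the one platelet gene found, was at 136 and 106 FPKM in B-1a and at 209 and 272 FPKM in B-1b, and of 4 neutrophil genes 0 were matched and they were not analysed here.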
